A study of Mus musculus with 2 samples.

Results

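Strong enrichment peaks of control mouse embryonic stem cells that had no counterpart after Dnmt3L was targeted were described here. They were chosen by score and overlap, as the peaks of the control (shGFP) list with a score of 100 or more that overlapped no peak of the knockdown (shDnmt3L) list by 1 bp or more. The rule found 585 peaks among 26516 strong shGFP peaks, out of 55292 shGFP peaks and 100871 peaks in both lists together. The score comes from the authors' peak caller, and higher values mark peaks that stood further above the caller's background. Score and overlap are given as descriptions with no test. Positions are on mm9, and since no annotation of that build was used here, peaks are given by position and not by gene.

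The libraries came from E14 cells, a widely used mouse embryonic stem cell line, transfected with a hairpin RNA against Dnmt3L (shDnmt3L, 1 library) or against GFP (shGFP, 1 library). Neither library had a replicate, so the values below carry no error between replicates and no p-value, and each difference is one between these libraries or between sets of peaks within the shGFP list. The labels do not say how long the hairpins acted or whether the cells were clones, and the level of Dnmt3L was not analysed here. By name the samples are MeDIP, and the design speaks of 5-methylcytosine, whereas the protocol describes capture with a Hydroxymethyl Collector kit, so the peaks are called enrichment peaks without naming the modification.

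Dnmt3L is a member of the DNA methyltransferase family that lacks catalytic activity of its own and binds Dnmt3a and Dnmt3b, the enzymes that place methyl groups on unmethylated cytosines. In mouse oocytes it is needed for maternal imprints, and in male germ cells for silencing retrotransposons. The Tet enzymes oxidise 5-methylcytosine to 5-hydroxymethylcytosine, which the collector kit marks with a modified glucose and pulls down. The lists hold peak calls only, so how much modification was left where a peak was lost is not known.

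The peaks that were absent after knockdown were few, small in total and mostly near the lowest score admitted. They made up 2.21% of the strong shGFP peaks (Wilson 95% interval 2.04 to 2.39%, for counting error only), whereas 25.5% of all shGFP peaks had no shDnmt3L peak. Together they covered 1.18 Mb, or 1.77% of the length under strong shGFP peaks. Their scores ran from 100.01 to 278.87 with a median of 111, against a median of 172 for the 25931 strong shared peaks. Scores below 120 were held by 69.1% of the absent peaks and by 19.2% of the shared ones.

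The share of peaks absent after knockdown fell steeply with the control score. It was 10.3% of the 1567 peaks within 5 points of the minimum, 5.22% of 2415 peaks at 110 to 120 and 1.27% of 2915 peaks at 140 to 160. Of 4037 peaks at 160 to 200, 15 were absent (0.372%), and of 10271 peaks at 200 or more, 4 were (0.0389%). The members just inside the limit scored 100.01, 100.02 and 100.03. The unshared shGFP peaks just outside it scored 99.98, 99.96 and 99.91.

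On the overlap side of the rule the classes were well apart. Only 1 strong shared peak had less than 10% of its length under shDnmt3L peaks, namely a 2478 bp peak at chr17:87197294-87199771 with 143 bp covered. At least 90% of the length was covered in 91.1% of the strong shared peaks. Among the absent peaks, 7 lay within 100 bp of a shDnmt3L peak, and the closest was 12 bp away.

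Both narrow and wide peaks were more frequent among the absent peaks than among shared peaks weighted to the same scores. For this comparison, the strong shared peaks were weighted so that each of 8 score classes held the same share in both sets. Peaks below 1 kb were 18.6% of the absent set (109 of 585, Wilson 95% interval 15.7 to 22.0%) and 1.08% of the score-weighted shared set, a ratio of 17.3. Against the shared peak nearest in score to each absent peak, the shared share was 14.0% and the ratio 1.33. Peaks of 3 kb or more were also 109 of 585, against 8.59% of the shared set, a ratio of 2.17. This direction turned without weights, where 22.3% of the strong shared peaks were this wide, and over all scores the absent share was 1.85% at 3 kb or more and 1.81% at 1 to 3 kb. Widths of 1 to 3 kb were correspondingly less frequent, at 62.7% against 90.3%. The median hid this spread. It was 1825 bp for the absent peaks (quartiles 1252 and 2696 bp) and 2079 bp for the score-weighted shared peaks (1768 and 2333 bp).

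**Figure D1:**
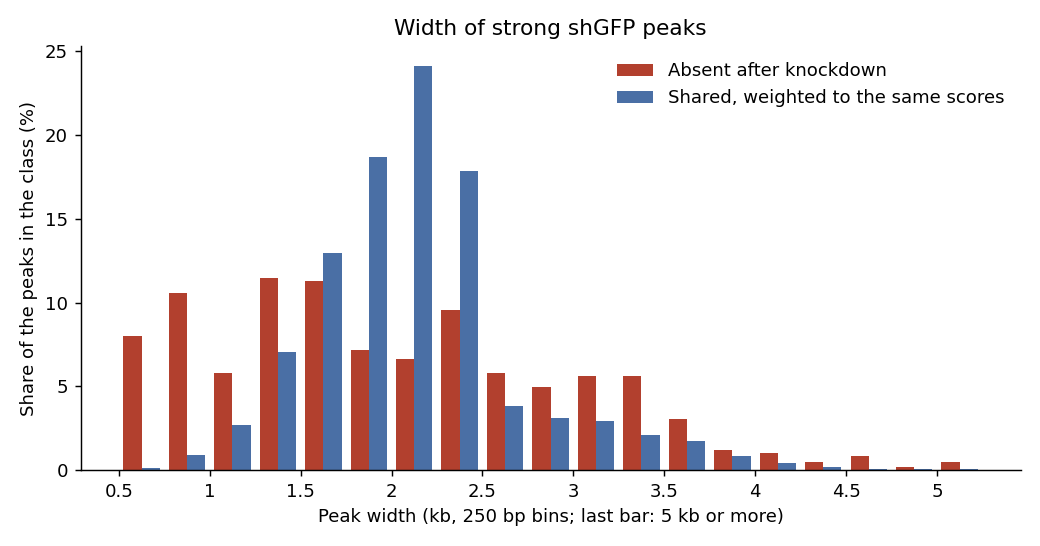
Width of the 585 peaks absent after knockdown (red) and of the strong shared shGFP peaks weighted to the same scores (blue), as the share of each set in width bins of 250 bp, the last bar holding peaks of 5 kb or more. The shared peaks pile up between 1.5 and 2.5 kb, while the absent peaks are flatter, with 8.03% against 0.155% between 500 and 750 bp.

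Read by width, the absent share was lowest at the most common width, among bins up to 4 kb. Of the strong shGFP peaks between 2000 and 2250 bp, 39 were absent and 4813 shared, so 0.804% were absent. This share was 50.5% between 500 and 750 bp (47 absent, 46 shared) and 25.8% between 750 and 1000 bp (62 absent, 178 shared). On the wide side it reached 3.12% between 3250 and 3500 bp (33 absent, 1024 shared). At 4 kb or more it was 0.866% of 2079 peaks, but 1941 of these scored 160 or more.

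Within a score class the same outline was seen. At scores of 100 to 120, the absent share was 51.9% below 1 kb (55 of 106), 6.78% at 1 to 2 kb, 4.74% at 2 to 3 kb, 16.5% at 3 to 4 kb and 22.9% at 4 kb or more (8 of 35). At scores of 120 to 160 it was 38.3% below 1 kb, 2.09% at 1 to 2 kb, 1.08% at 2 to 3 kb, 3.43% at 3 to 4 kb and 6.80% at 4 kb or more. At 160 or more, 13 of 120 narrow peaks were absent (10.8%, Wilson 95% interval 6.44 to 17.7%), against 2 of 9588 peaks of 1 to 3 kb (0.0209%) and 4 of 4600 peaks of 3 kb or more (0.0870%). Narrow peaks thus made up 13 of the 19 absent peaks with scores of 160 or more.

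**Figure D2:**
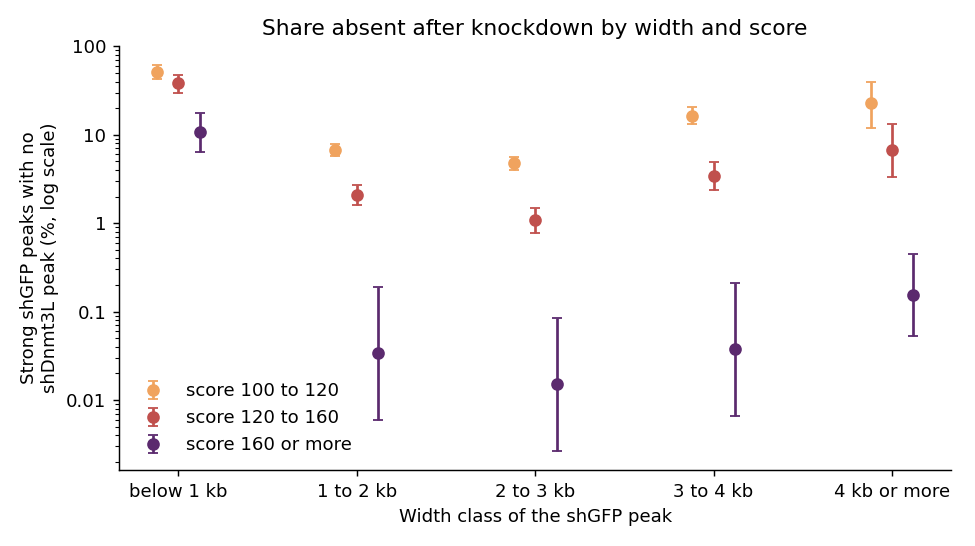
Share of strong shGFP peaks with no shDnmt3L peak (log scale) in 5 width classes, for scores of 100 to 120, 120 to 160, and 160 or more. Points are shares and bars Wilson 95% intervals, which cover counting error only. In each score class the share is highest below 1 kb and lowest at 2 to 3 kb, and at 160 or more it is 10.8% below 1 kb and under 0.2% in the other width classes.

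The 109 narrow absent peaks were 542 to 998 bp wide with a median of 771 bp, and their median score was 119. A score of 100 or more puts any peak of this width above 100 per kb, and the median was 161 per kb for the narrow absent peaks and 142 per kb for the narrow shared peaks weighted by score. The other list held few peaks of this shape. Peaks below 1 kb numbered 114 in shDnmt3L (0.250% of that list) and 764 in shGFP (1.38%). The median width over the whole list was 2376 bp in shDnmt3L and 1998 bp in shGFP, and the part of this difference in the absence of narrow peaks was not tested. All 56 strong narrow shDnmt3L peaks overlapped a shGFP peak, and 0 of 56 allows a share of up to 5.36%. Where a strong narrow shGFP peak was shared, its shDnmt3L partner had a median width of 1413 bp, and 49 of 224 partners (21.9%) were themselves below 1 kb.

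A small set of repeated scores was common among narrow peaks. Of all strong narrow peaks, 92.7% of the 109 absent and 60.3% of the 224 shared ones held one of 15 scores that at least 5 narrow peaks shared. Read the other way, 42.8% of the 236 narrow peaks at a repeated score were absent, against 8.25% of the 97 at other scores. Neither score nor width was held equal in these contrasts, and their part in them was not tested. Of the 73 narrow peaks scoring 200 or more, 3 were absent (4.11%), and only 200.69 and 278.87 were repeated scores there. The sets were closer among the narrowest and lower-scoring peaks, with limits chosen after the values were seen. Of 231 strong shGFP peaks up to 950 bp wide with scores up to 210, 228 held a repeated score, namely all 98 absent peaks of this size and 130 of the 133 shared ones. The values ran in nearly even steps from 102.89, 109.66 and 116.56 to 192.48 and 200.69, with steps of 6.77 to 8.21, and the remaining one was 278.87. Between 200.69 and 278.87, scores such as 209.0, 225.92 and 251.99 also recurred among narrow peaks, but each on fewer than 5. The gap before 278.87 thus reflects the minimum of 5 peaks per score. Above 950 bp the repetition nearly ended, as the 42 peaks between this width and 1 kb with scores up to 210 held 41 different scores and 1 of them, an absent peak, a repeated one. At 1 kb or more, repeated scores were rare throughout, with 0 of 476 absent peaks, which allows a share of up to 0.630%, and 20 of all 26183 strong shGFP peaks (0.0764%).

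The repeated scores allowed absent and shared peaks below 1 kb to be set side by side at an identical score, though width was not held equal below that limit. At the lowest of these scores, 102.89, 11 of 27 narrow peaks were absent (40.7%). At 109.66, 20 of 31 narrow peaks were absent (64.5%), and at 116.56, 16 of 27 were (59.3%). At the 7 scores of 123.60 to 168.49 the absent share was lowest at 138.08 (7 of 19) and highest at 160.71 (5 of 10), in no steady order. Between 176.38 and 200.69, 3 of 32 narrow peaks at these scores were absent, and at 278.87, 2 of 7 were (28.6%). At the same score the narrow peaks were therefore a mixture of absent and shared ones at each step except 192.48, where 0 of 6 were absent. Over all narrow peaks, at a repeated score or not, the absent ones were narrower than the shared ones weighted to their scores, with medians of 771 and 885 bp. Of the 256 strong shGFP peaks of any width at a repeated score, 236 were narrow.

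**Figure D3:**
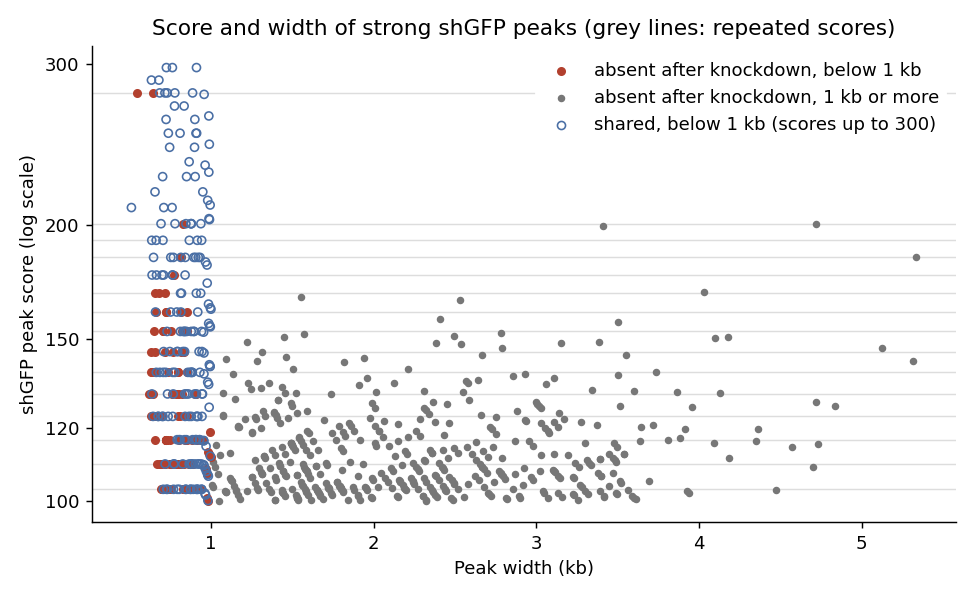
Score (log scale) against width in kb for the absent peaks below 1 kb (red) and of 1 kb or more (grey), with the shared strong peaks below 1 kb and up to a score of 300 as open blue circles. Grey lines mark the 15 repeated scores. Absent and shared narrow peaks sit on the same lines from 102.89 to 200.69, except that at 192.48 all 6 are shared, and beyond about 1 kb the points leave these lines.

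The widths of the 109 wide absent peaks ran from 3005 to 5335 bp with a median of 3413 bp, and their median score was 112. Their median score per kilobase was 32.8 per kb, against 33.7 per kb for shared peaks of 3 kb or more at the same scores, whose median width was 3357 bp. The widest lay at chr8:97096717-97102051, with a width of 5335 bp and a score of 184.72. The next was a 5317 bp peak at chr8:109609316-109614632 with a score of 142.12. The others of the 5 widest were a 5126 bp peak at chr5:138092038-138097163, a 4837 bp peak at chr7:53002433-53007269 and a 4732 bp peak at chr3:88530949-88535680. Each of these 5 had shGFP neighbours, between 2 and 10 of them within 50 kb (numbers of neighbours are counted from midpoint to midpoint, distances from edge to edge), and the nearest shDnmt3L peak was 901 to 10989 bp away.

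The 10 absent peaks of highest score came from these extremes of width, with 6 below 1 kb and 4 above 3 kb. The highest score, 278.87, was held by a 642 bp peak at chr1:50317372-50318013 and by a 542 bp peak at chr14:6042853-6043394. Neither had another peak of either list within 50 kb. The third was a 4721 bp peak at chr5:37516125-37520845 with a score of 200.76, with 3 other shGFP peaks and 3 shDnmt3L peaks within 50 kb. An 830 bp peak at chr4:81111454-81112283 had 200.69 and again no neighbour within 50 kb. Ranks 5 and 6 were wide peaks with 6 and 10 other shGFP peaks within 50 kb. The first of these was 3409 bp wide, lay at chr4:150866713-150870121 and scored 199.65, and the other was the 5335 bp peak on chromosome 8 named above.

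Ranks 7, 8 and 10 were narrow. They were an 817 bp peak at chr14:35660410-35661226 with a score of 184.38, a 771 bp peak at chr1:60640852-60641622 with 176.38, and a 714 bp peak at chr3:67916710-67917423 with 168.49, the widest of 3 with this score. Rank 9 was a 4028 bp peak at chr2:173005384-173009411 with a score of 169.02, where 7 other shGFP and 7 shDnmt3L peaks lay within 50 kb. The narrow peaks of ranks 7 and 8 had 3 other shGFP peaks each within 50 kb, and that of rank 10 had none. High-scoring absent peaks thus stood both alone and among other peaks of both lists.

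Most absent peaks lay near, but not next to, a shDnmt3L peak. The median distance from edge to edge was 9711 bp (quartiles 2751 and 28799 bp). Of the 585, 57 (9.74%) lay within 1 kb of a shDnmt3L peak, 204 (34.9%) within 5 kb and 495 (84.6%) within 50 kb, while 52 (8.89%) were more than 100 kb away and 2 more than 1 Mb. The shared peaks were treated alike by measuring to the nearest shDnmt3L peak that did not overlap them. After weighting by score, 10.4% had such a peak within 1 kb, 40.3% within 5 kb and 89.7% within 50 kb, with a median of 7341 bp. Absent peaks therefore lay in somewhat sparser surroundings than shared peaks of their score. With weights for score and width together the shared median was 8564 bp, closer to that of the absent peaks.

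The distance differed between width classes, in absent and shared peaks alike. Narrow absent peaks had a median distance of 37467 bp, those of 1 to 3 kb one of 9200 bp and those of 3 kb or more one of 5018 bp. The shared peaks in the same width classes, weighted by score, had medians of 29204 bp, 7726 bp and 4897 bp. More than 100 kb from a shDnmt3L peak were 28.4% of the narrow absent peaks (31 of 109, Wilson 95% interval 20.8 to 37.5%) and 21.1% of the narrow shared ones, a difference within the counting interval. For 3 kb or more these shares were 0.917% and 1.31%. Within 10 kb the narrow sets differed more, with 22.9% of the absent peaks (16.05 to 31.67%) and 32.3% of the shared ones, outside that interval. At limits of 5 kb and 50 kb the narrow shared share lay within the interval of the absent one.

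**Figure D4:**
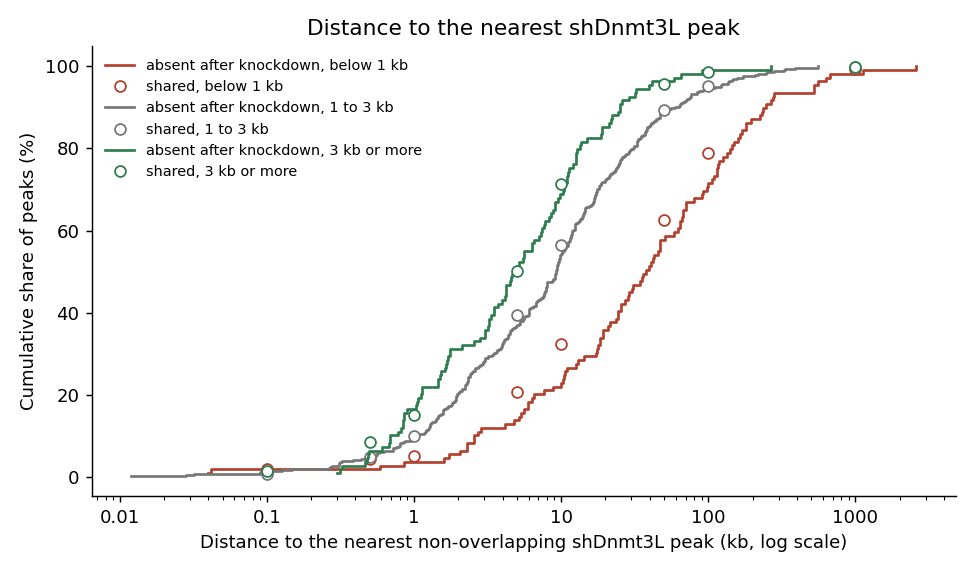
Cumulative share of peaks by the distance to the nearest shDnmt3L peak that does not overlap them (kb, log scale). Lines are the absent peaks in 3 width classes and open circles the shared strong peaks of the same class, weighted to the same scores. Narrow peaks lie far to the right of wide ones in both sets, with medians of 37467 and 5018 bp among the absent peaks.

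The 5 absent peaks farthest from any shDnmt3L peak included 4 below 1 kb. The farthest was an 806 bp peak at chrX:153810947-153811752 with a score of 123.60, and its nearest shDnmt3L peak and its nearest other shGFP peak were both 2590 kb away. Those on chromosome 14 at 6042853, on chromosome 4 at 81111454 and on chromosome 1 at 50317372, described above, followed with distances of 1118, 668 and 634 kb. The remaining peak, 1397 bp wide at chr2:97790497-97791893, was 560 kb away.

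At the other end, the nearest cases nearly touched a shDnmt3L peak. A 2133 bp peak at chr2:168471726-168473858 ended 12 bp before a shDnmt3L peak of 2471 bp. A 2357 bp peak at chr17:34706792-34709148 was 28 bp away, and a 2955 bp peak at chr9:120438917-120441871 was 32 bp away. Narrow peaks at chr2:128148660-128149289 (630 bp) and at chr1:21241650-21242476 (827 bp) were 40 and 42 bp away. In all 5 cases that shDnmt3L peak overlapped another shGFP peak, so it had a control partner of its own.

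For most absent peaks, much as for shared peaks, the nearest shDnmt3L peak had a control partner. The nearest shDnmt3L peak overlapped some other shGFP peak for 530 of the 585 absent peaks (90.6%, Wilson 95% interval 88.0 to 92.7%). With overlapping peaks set aside, this held for 87.9% of the score-weighted shared peaks, and for 87.3% when width was weighted too. A nearest shDnmt3L peak that had no shGFP peak under it lay within 1 kb of 1 absent peak, within 5 kb of 6 and within 10 kb of 17. These counts were not made for shared peaks.

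Absent peaks stood between peaks found in both libraries slightly less often than shared peaks of their score did. Both neighbouring shGFP peaks were shared for 302 of the 585 (51.62%, Wilson 95% interval 47.58 to 55.65%). Of the score-weighted shared peaks this held for 55.71%, just above that interval. When width was weighted too it held for 54.57%, within the interval. Neither neighbour was shared for 57 (9.74%, 7.60 to 12.4%), against 6.96% and 8.06% of the shared peaks in the same order of weights. Only the width-weighted value lies within the interval. Read as runs of consecutive shGFP peaks without a shDnmt3L peak, weak ones included, the absent peaks fell into 578 runs. Of these, 302 held 1 peak, namely the 302 peaks with both neighbours shared. Another 142 runs held 2 and 21 held 5 or more, and 7 runs contained 2 strong absent peaks. Run lengths had no comparison set.

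The longest run held 12 consecutive unshared shGFP peaks at chr4:80578880-82022994, a span of 1444 kb with no shDnmt3L peak. Its scores ran from 50.22 to 200.69, and its only strong peak was the 830 bp peak at 81111454. The next run, of 8 peaks, lay at chr8:78494814-79550396, with scores of 50.36 to 119.96 and 1 strong peak. It spanned 1056 kb, in which 1 shDnmt3L peak lay between the control peaks. Runs of 7 lay at chr1:108054305-108597304, at chr5:130060307-130105824 and at chr6:93569263-93730923, each with 1 strong peak scoring 100.02, 102.89 and 101.50 in that order. These runs were chosen for their length after the values were seen, and they consisted almost wholly of weak peaks.

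Neighbouring shGFP peaks were a little more distant from absent than from score-weighted shared peaks, but less clearly so under other matches. The median gap to the nearest other shGFP peak was 7335 bp for absent peaks and 5785 bp for score-weighted shared peaks, and the mean number of other shGFP peaks within 50 kb was 4.49 for absent and 5.11 for shared peaks. No other shGFP peak lay within 50 kb of 66 absent peaks (11.3%, Wilson 95% interval 8.97 to 14.1%), against 7.61% of the shared peaks. With weights for score and width together the shared share was 11.3% as well, and the shared median gap was 6636 bp. The gap difference was then 699 bp (−548 to 2125), and 984 bp (−263 to 2410) against the shared peak nearest in score. Both intervals span both signs. So did those for the mean number within 50 kb, −0.258 (−0.539 to 0.0235) and −0.150 (−0.432 to 0.131) in the same order. Isolation went with narrow width in both sets. Of the narrow peaks, 29.4% of the absent and 29.6% of the shared ones had no other shGFP peak within 50 kb, and of those of 3 kb or more, 2.75% and 2.17%.

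Few absent peaks lay close to one another. Joined within 100 kb they formed 568 groups, 17 of which held 2 peaks and none more. Another absent peak lay within 100 kb of 34 of the 585 (5.81%, Wilson 95% interval 4.19 to 8.01%), whereas 8.83% of the score-weighted shared peaks had an absent peak that close, and 8.59% when width was weighted as well. The order reversed with a minimum score of 80, where the difference was 1.34 percentage points instead of −3.02, with an interval of −0.562 to 3.33 that includes 0. With the shared peak nearest in score the difference was −1.71 points (−3.33 to 0.490, from the Wilson 95% interval of the absent share alone), and within 500 kb in place of 100 kb it was −1.75 points (−5.41 to 2.14), and both intervals include 0. When each absent peak was replaced by the shared peak nearest in score, 71 of 585 (12.1%) fell into groups of 2 or more. From one absent peak to the nearest other one, the median gap was 1076 kb (quartiles 390 and 2618 kb), a value that had no comparison set.

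Of the 17 pairs, the 5 with the largest summed width are given by position. The first lay at chr8:126524906-126581410 and joined peaks of 3342 and 4718 bp with scores of 132.03 and 128.22. Then came chr7:53002433-53021706, with 4837 and 2005 bp, and chr9:119757894-119851912, with 3080 and 3504 bp. The pair at chr16:89840593-89944121 had 3863 and 2631 bp, and that at chr9:43638923-43665992 had 2981 and 3482 bp. These spans held 2, 2, 2, 10 and 1 shDnmt3L peaks in the same order, so in each of these 5 pairs the absent peaks were interleaved with peaks that the knockdown library had.

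Over windows of 1 Mb, the 585 peaks fell in 489 windows, of which 407 held 1, 71 held 2, 8 held 3 and 3 held 4. The 3 fullest windows began at 52000001 on chromosome 13, 27000001 on chromosome 17 and 148000001 on chromosome 4. Besides their 4 absent peaks each, they held 41, 56 and 34 strong shared peaks. The window counts had no comparison set.

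The absent peaks were spread over 20 chromosomes, namely all autosomes and X. Their number per chromosome ran from 13 on chromosome 16 to 44 on chromosome 5 among the autosomes, and the share of strong peaks that were absent ran from 1.02% on chromosome 8 to 3.32% on chromosome 19. On chromosome X, 5 of 88 strong peaks were absent (5.68%, Wilson 95% interval 2.45 to 12.6%), and 3 of the 5 were narrow. Of the 7 strong peaks on Y and the mitochondrial genome none was absent, which allows a share of up to 42.9%.

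Chromosome 8, the most peak-rich chromosome of the list, had a smaller share of absent peaks than the other autosomes together. It held 33 absent peaks, or 5.64% of them (Wilson 95% interval 4.05 to 7.82%), but 9.69% of the score-weighted shared peaks and 8.81% when width was weighted too. The difference from the score-weighted shared peaks, −4.05 percentage points, was −2.05 points against the shared peaks nearest in score, with an interval of −3.65 to 0.124 from the counting error of the absent share, which includes 0. At scores of 100 to 120, 21 of 498 strong peaks on chromosome 8 were absent (4.22%, 2.77 to 6.36%), against 382 of 4859 on the other autosomes (7.86%, 7.14 to 8.65%). At 120 to 160 the shares were 1.63% (0.911 to 2.89%) and 2.40% (2.04 to 2.81%), and these intervals overlap. Chromosome 8 also held only 7 of the 333 strong narrow peaks, 2 of them absent, and 10 of the 109 wide absent peaks. The other chromosomes differed by less. Chromosome 17 held 6.67% of the absent peaks (4.92 to 8.98%) and 4.70% of the score-weighted shared peaks, and chromosome 19 held 4.27% (2.91 to 6.23%) and 2.86%. With width weighted too, the shared shares were 5.77% and 3.11%, both within these intervals.

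**Figure D5:**
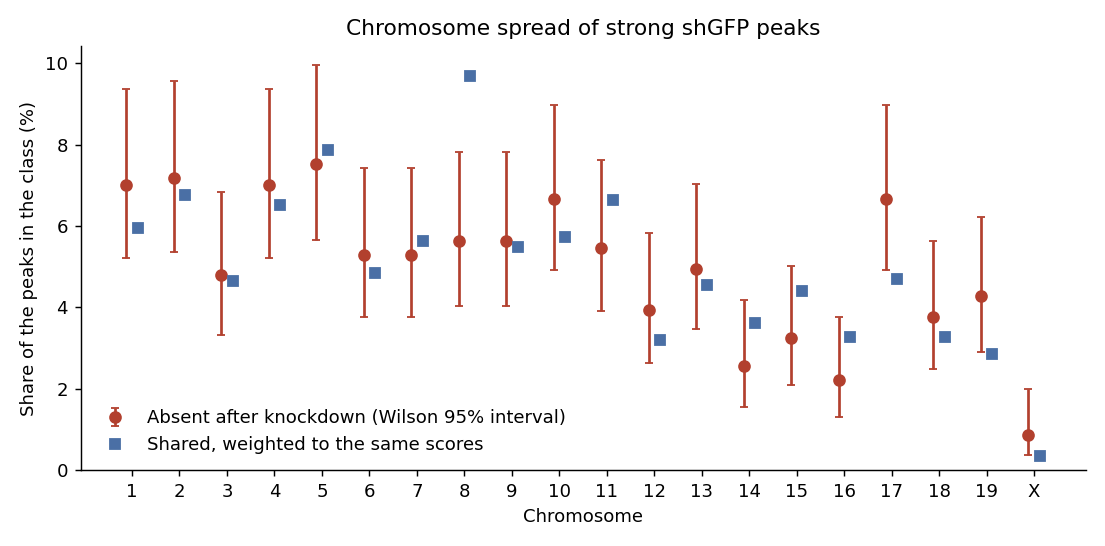
Share of the 585 absent peaks on each chromosome (red points, with Wilson 95% intervals for counting error) and of the strong shared peaks weighted to the same scores (blue squares). Chromosome 8 stands lowest against its shared share, at 5.64% against 9.69%, and chromosomes Y and M are left out because none of their 7 strong peaks was absent.

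Along the autosomes the absent share varied little. Divided into 10 equal parts by the end of the last peak, it lay between 1.78% and 2.73%. The lowest value, 103 of 5781 strong peaks (Wilson 95% interval 1.47 to 2.16%), was in the part farthest from the centromere, which is also where peaks were densest, and the highest, 52 of 1908 (2.08 to 3.56%), in the sixth part.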

How the data were processed

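Each library was deposited as a BED list of peaks. Column 5 holds a score from the authors' peak caller. Its lowest values, 50 in shDnmt3L and 50.01 in shGFP, are what a p of 1e-05 gives as 10 times −log10 of p, a reading from the values. CASAVA 1.8, Bowtie 0.12.7, MACS 1.4.1 and mm9 are named, without roles, in the submitters' processing notes. Input control, duplicate handling and depth are not stated there. Since the depth is unknown, counts and widths of peaks may depend on it. Scores of the lists were not compared, apart from a minimum set on shDnmt3L peaks.

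Coordinates are on mm9, with the first base counted as 1. Only tables of GRCm38 were at hand, so no gene, promoter or sequence was assigned to a peak, and the planned counts on annotation and gene lists were not made. Tools were scipy 1.17.1, pandas 2.3.3, numpy 2.4.6 and Python 3.11.15. Overlap needed 1 bp. Shared peaks were weighted in score classes of 5 points at the minimum score and wider classes above it, up to 200 or more. Intervals are Wilson 95% and treat peaks as independent, which neighbours are not. Overlaps and gaps were checked on simulated lists.

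The regions named were the 10 of highest score, the 5 widest, the 5 farthest from and 5 nearest to a shDnmt3L peak, the 5 largest groups and 3 peaks on either side of the minimum score. The members, the rules and the lists were chosen with earlier results of these data known. The narrow and wide classes, the repeated scores, the runs and the 1 Mb windows were chosen after values were seen.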

Additional observations from a re-analysis of the deposited data

How the results depend on the processing

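Among 78 values under other settings, 45 were within the range of the reported ones, 31 outside it and 2 of opposite sign. That range was a factor of 1.5 for the number of peaks and otherwise a 95% counting interval. Many moves are fixed by the setting, and 7 of the alternatives were chosen after seeing the data. The cause of the other shifts was not tested. The number of absent peaks, 585, was 1984, 181 and 34 at minimum scores of 80, 120 and 150, 381 with no shDnmt3L peak within 5 kb and 1160 when shDnmt3L peaks had to score 60 or more. The difference in median width (absent minus shared), −254 bp, was −487 bp at 5 kb and −444 bp without weights. It was −627 bp at a score of 120 and −1426 bp (−1531 to 151) at 150. Among peaks of 1 kb or more, where the narrow peaks are left out, it reversed to 111 bp (−45 to 232). Both of these intervals span both signs. The median distance to a shDnmt3L peak was 18482 bp at 150, 19243 bp at 5 kb, 11748 bp at shDnmt3L scores of 60 or more and 7957 bp for peaks of 1 kb or more. The difference in gap to other shGFP peaks, 1550 bp, was 3394 bp at 120, 6360 bp at 150 and 8352 bp at 5 kb. For peaks of 1 kb or more it was 250 bp, with an interval of −808 to 1580 that spans both signs. For the nearest non-overlapping shDnmt3L peak the difference, 2370 bp, was 3719 bp without weights and 1075 bp with the nearest score. The difference in the share with an absent peak within 100 kb, −3.02 percentage points, reversed to 1.34 (−0.562 to 3.33) at a score of 80 and was −0.415 at 150. On chromosome 8 the difference, −4.05 points, was −6.55 at 5 kb, −6.77 without weights and −2.05 with the nearest score, and it cannot be given without that chromosome. The difference in other shGFP peaks within 50 kb, −0.621, was −1.22 without weights and −4.05 within 500 kb. It was −0.150 (−0.432 to 0.131) with the nearest score and −0.258 (−0.539 to 0.0235) with width weighted. The excess of narrow peaks, 17.6 points, was 9.59 at a score of 80, 28.9 at 120, 57.9 at 150, 4.62 with the nearest score and 7.88 at 750 bp. With the match by nearest score, 14.0% of the shared peaks were narrow. Of the 256 strong shGFP peaks at a repeated score 236 were narrow, and the part of the repeated scores in this match was not tested. No paired analysis was possible because there is 1 library a group. Depth is unknown.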

Other observations

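Below the score of 100 the dependence on width continued. Of the shGFP peaks with scores of 90 to 100, 26 of 47 below 1 kb had no shDnmt3L peak (55.3%, Wilson 95% interval 41.3 to 68.6%), against 369 of 3210 at 1 to 3 kb (11.5%, 10.4 to 12.7%) and 52 of 197 at 3 kb or more (26.4%, 20.7 to 33.0%). At 80 to 90 the shares were 73.5%, 20.6% and 35.9% in the same order of width. At 60 to 80 they were 80.1% of 206 narrow peaks, 45.2% of 11306 peaks of 1 to 3 kb and 49.6% of 139 wide ones.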
